A study of Homo sapiens with 8 samples.

Results

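The gene FOXQ1 was knocked down in PANC-1, an established human pancreatic cancer cell line, with 2 small interfering RNAs (siRNAs) called si-FOXQ1-1 and si-FOXQ1-2, and the transcripts that responded differently to them are described here. Each siRNA had 1 Agilent 2-colour array. On each array the RNA of transfected cells was labelled with Cy5 and the RNA of untransfected PANC-1 cells, called mock, with Cy3. The mock cells received neither siRNA nor reagent according to their label, so each ratio holds the response to the transfection itself together with that to the siRNA, and the difference between both siRNAs is the part that a shared transfection response does not enter. Transfection was with Lipofectamine RNAiMAX. The siRNA sequences, their doses and the time of harvest were not given in the sources used here, no array of a control siRNA was analysed here, and the dyes were not swapped. The other 6 of the 8 arrays came from FaDu and PC3 cells that received microRNAs.

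Genes were kept when their probe was well above background in both channels of both PANC-1 arrays and carried no outlier flag. The brightest such probe stood for the gene. This left 15869 of the 43317 genes with a probe. For each gene, the log2 ratio of Cy5 over Cy3 under si-FOXQ1-2 was subtracted from that under si-FOXQ1-1, so a positive difference means a higher transcript level under si-FOXQ1-1. With 1 array per siRNA there was no replicate, no test was made, and a difference of at least 2-fold was used as the limit. The error given with a value is the spot error of the scanner software. It covers the noise of the spot and its background, and it does not cover the spread between cultures. Fold changes were taken between samples for the same probe. Signals were compared between probes only to choose the brightest and to describe how bright or dim they were.

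FOXQ1 encodes a transcription factor of the forkhead family, which binds DNA through a winged-helix domain, and it is known in carcinoma cells for links to epithelial-mesenchymal transition, motility and survival. An siRNA is loaded onto an Argonaute protein and guides the cleavage of the matching transcript. The same guide strand can also repress unrelated transcripts through short seed matches, as a microRNA does, so siRNAs of different sequence against one gene share the intended target and differ in unintended ones. Transcripts that part ways between such siRNAs are therefore candidates for effects of one sequence, although a difference in dose, timing or culture would appear in the same way and cannot be told apart from it with these arrays.

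FOXQ1 itself was at nearly the same level, far below mock, under both siRNAs. Its probe (chromosome 6, 1314629 to 1314688, hg19) gave a signal of 4887 in mock cells and 1092 under si-FOXQ1-1 on the first array, and 4557 in mock cells and 1046 under si-FOXQ1-2 on the second array. The log2 ratios were -2.16 ± 0.29 and -2.12 ± 0.28. The difference between the siRNAs was -0.04 ± 0.40, a 1.03-fold change, and it lay within the spot error. FOXQ1 was measured by 1 probe. Of 9 genes listed as linked to FOXQ1, 4 passed the signal filter and none of them differed 2-fold between the siRNAs. The highest was VIM, the mesenchymal intermediate filament vimentin, at 0.40 ± 0.29, and the lowest was CDKN1A, the cyclin-dependent kinase inhibitor p21, at 0.15 ± 0.36. CDKN1A had log2 ratios of -0.45 and -0.60 against mock.

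The cells carried the transcripts of their label. All 10 PANC-1 markers were well above background in every channel, while the squamous markers DSG3, KRT14, KRT5, KRT6A and TP63, the prostate markers ACPP, KLK2 and KLK3 and the fibroblast markers COL1A2, COL3A1, DCN and LUM were above background in none. No spot was saturated, and 94 and 178 spots of 60901 carried an outlier flag on the arrays of si-FOXQ1-1 and si-FOXQ1-2. The spike-in controls gave observed over expected slopes of 0.892 and 0.893, so both arrays returned log ratios slightly smaller than those put in.

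Between the siRNAs, 177 genes (1.12% of all genes measured) were at least 2-fold higher under si-FOXQ1-1 and 88 genes (0.555%) were at least 2-fold lower. Together these were 265 genes, or 1.67%. The differences had a standard deviation of 0.35 on the log2 scale over all genes and a median of -0.01. They ran from -2.14 to 2.48. When the transfected channels of both arrays were set against each other without the mock, 252 genes (1.59%) differed at least 2-fold, and 139 of the 177 higher genes and 52 of the 88 lower genes were among them in the same direction. The mock channels, both labelled as untransfected PANC-1, differed at least 2-fold for 10 genes (0.063%), with a standard deviation of 0.15. None of the 265 genes differed 2-fold between the mock channels, where their largest difference was 0.82 on the log2 scale. At 1.5-fold, 7 of the 177 higher genes and 3 of the 88 lower genes differed between the mock channels. Over all 15869 genes it was 104, so mock differences were more frequent among the differing genes.

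**Figure D1:**
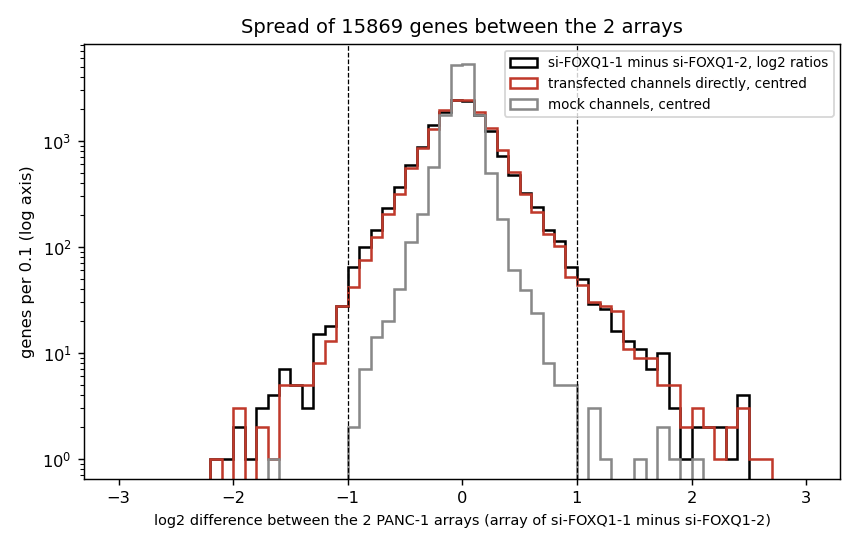
Distribution over 15869 genes of the difference between the PANC-1 arrays (x axis, log2, array of si-FOXQ1-1 minus array of si-FOXQ1-2; y axis, genes per bin of 0.1, log axis). The black line is the difference of log2 ratios, the red line the transfected channels compared directly and the grey line the mock channels, the last 2 centred on their median. Dashed lines mark 2-fold. The mock channels (standard deviation 0.15) are narrower than the other lines (0.35 and 0.34).

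The count depended on signal. Of the 3968 dimmest genes, with signals of 25.3 to 148, 3.48% differed at least 2-fold, and of the 3967 brightest 0.504%. The mock channels spread more at low signal too, with standard deviations of 0.23 among the dimmest and 0.09 among the brightest. The median signal was 142 for the higher genes and 129 for the lower genes, against 504 for all genes. After normexp background correction with an offset of 50 and loess normalisation, 71 genes were higher and 29 lower, and all of these were among the 177 and 88.

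Most of the differing genes were at least 1.5-fold from mock under 1 of the siRNAs and within 1.5-fold of it under the other. Their median log2 ratios lay on opposite sides of mock. The genes were chosen by the difference of these ratios, which by itself pulls the medians apart. For the 177 higher genes the medians were 0.69 under si-FOXQ1-1 and -0.57 under si-FOXQ1-2, and for the 88 lower genes -0.72 and 0.54. A 1.5-fold departure from mock was used as the limit for this description, which 1030 genes (6.49%) passed under si-FOXQ1-1 and 755 (4.76%) under si-FOXQ1-2. Of the 177 higher genes, 83 were above mock under si-FOXQ1-1 alone, 66 were below mock under si-FOXQ1-2 alone, and 21 were above under the first and below under the second. Of the 88 lower genes, 44 were below mock under si-FOXQ1-1 alone, 26 were above mock under si-FOXQ1-2 alone, and 12 did both. Protein-coding genes were 199 of the 265, close to their share of all genes measured (75.1% against 73.3%).

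**Figure D2:**
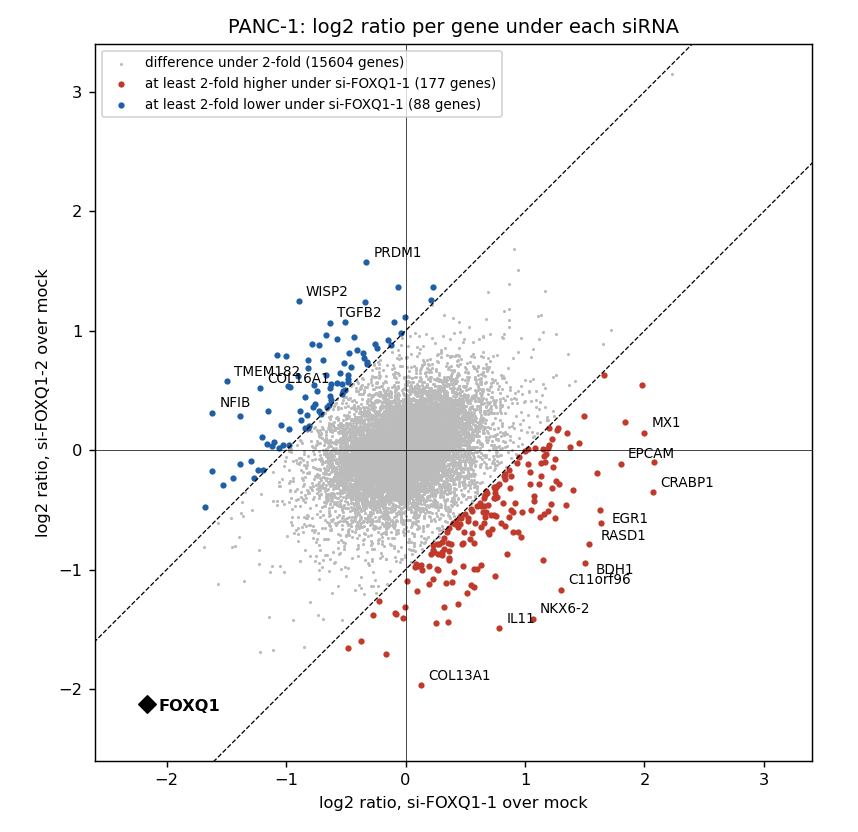
log2 ratio of transfected over mock cells for each gene under si-FOXQ1-1 (x axis) and si-FOXQ1-2 (y axis). Red points are the 177 genes at least 2-fold higher and blue points the 88 genes at least 2-fold lower under si-FOXQ1-1, grey points are other genes, the dashed lines mark 2-fold, and the black diamond is FOXQ1. FOXQ1 lies near -2.16 and -2.12, far from both dashed lines.

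The genes with the largest positive differences included transcription factors and signalling proteins. NKX6-2, a homeodomain transcription factor best known from the nervous system, had a signal of 5715 in mock cells and 11953 under si-FOXQ1-1, and of 5502 in mock cells and 2068 under si-FOXQ1-2. It was thus above mock with one siRNA and below mock with the other, with log2 ratios of 1.06 ± 0.23 and -1.41 ± 0.24 and a difference of 2.48 ± 0.33, or 5.57-fold. Its probe lay on chromosome 10 at 134598324 to 134598383 (hg19), and its other probes gave 2.12 ± 0.32 and 1.99 ± 0.34. EGR1, a zinc-finger transcription factor induced within minutes of growth factor signalling, had a signal of 299 in mock cells and 927 under si-FOXQ1-1, and of 267 in mock cells and 176 under si-FOXQ1-2. Its log2 ratios were 1.63 and -0.61, with a difference of 2.24 ± 0.34 (chromosome 5, 137804891 to 137804950, hg19). EGR1 was therefore above mock with si-FOXQ1-1 and, to a lesser degree, below mock with si-FOXQ1-2.

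RASD1, a small GTPase of the Ras family that is induced by glucocorticoids, had a signal of 889 in mock cells and 2585 under si-FOXQ1-1, and of 791 in mock cells and 459 under si-FOXQ1-2. Its probe was spotted 10 times, and the difference over these spots was 2.33 with a range of 2.14 to 2.41. The spots of RASD1 did not overlap between the siRNAs, with log2 ratios of 1.41 to 1.63 and of -0.90 to -0.62, though they shared the same labelled RNA. RASD1 was named for its large difference, so this separation followed from its choice. The spots of CAMK2N1, RGS2 and SUCO, the other differing genes with repeated spots, did not overlap either. IL11, a cytokine that signals through the gp130 receptor, had a signal of 292 in mock cells and 503 under si-FOXQ1-1, and of 283 in mock cells and 101 under si-FOXQ1-2. IL11 lay farther from mock under si-FOXQ1-2, where it was below it (log2 ratio -1.49, against 0.78 under si-FOXQ1-1), with a difference of 2.27 ± 0.34. C11orf96, a protein-coding gene on chromosome 11, had log2 ratios of 1.30 and -1.17 and a difference of 2.47 ± 0.36, and of 1.68 after normexp and loess.

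Surface and junction proteins lay on both sides, with EPCAM, CLDN3 and COL13A1 higher and CGNL1 lower under si-FOXQ1-1. EPCAM, the epithelial cell adhesion molecule, had a signal of 723 in mock cells and 2516 under si-FOXQ1-1, and of 673 in mock cells and 621 under si-FOXQ1-2. Nearly the whole difference of 1.91 ± 0.33 lay above mock with si-FOXQ1-1 (log2 ratios 1.80 and -0.11). KDF1, a regulator of epidermal differentiation, differed by 2.14 ± 0.34 and CLDN3, a tight junction claudin, by 1.02 ± 0.30. COL13A1, a transmembrane collagen of cell-matrix contacts, showed the other arrangement. Its signal was 454 in mock cells and 496 under si-FOXQ1-1, and 412 in mock cells and 105 under si-FOXQ1-2, so it was near mock with the first siRNA and below mock with the second (log2 ratios 0.13 and -1.97, difference 2.09 ± 0.35).

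Metabolic, retinoid and cytoskeletal genes completed the group. BDH1, the mitochondrial 3-hydroxybutyrate dehydrogenase of ketone body metabolism, had a signal of 178 in mock cells and 503 under si-FOXQ1-1, and of 167 in mock cells and 86.6 under si-FOXQ1-2. Its difference was 2.45 ± 0.34. CRABP1, which binds retinoic acid in the cytoplasm, had log2 ratios of 2.07 and -0.35 and a difference of 2.42 ± 0.43, and a further, dimmer probe gave 0.95 ± 0.45. PON3, a lactonase of the paraoxonase family, differed by 1.82 ± 0.32 and had log2 ratios of 1.25 and -0.57. TMSB15A, an actin-binding thymosin, differed by 2.18 ± 0.40, TPPP3, a tubulin-binding protein, by 2.07 ± 0.39, and ASB2, a substrate adaptor of a ubiquitin ligase, by 1.80 ± 0.34. TMSB15A was near mock under si-FOXQ1-2 (log2 ratio -0.10), whereas TPPP3 was below it (-0.92). After normexp and loess, CRABP1 was at 1.53, TMSB15A at 1.48 and TPPP3 at 1.18.

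**Figure D3:**
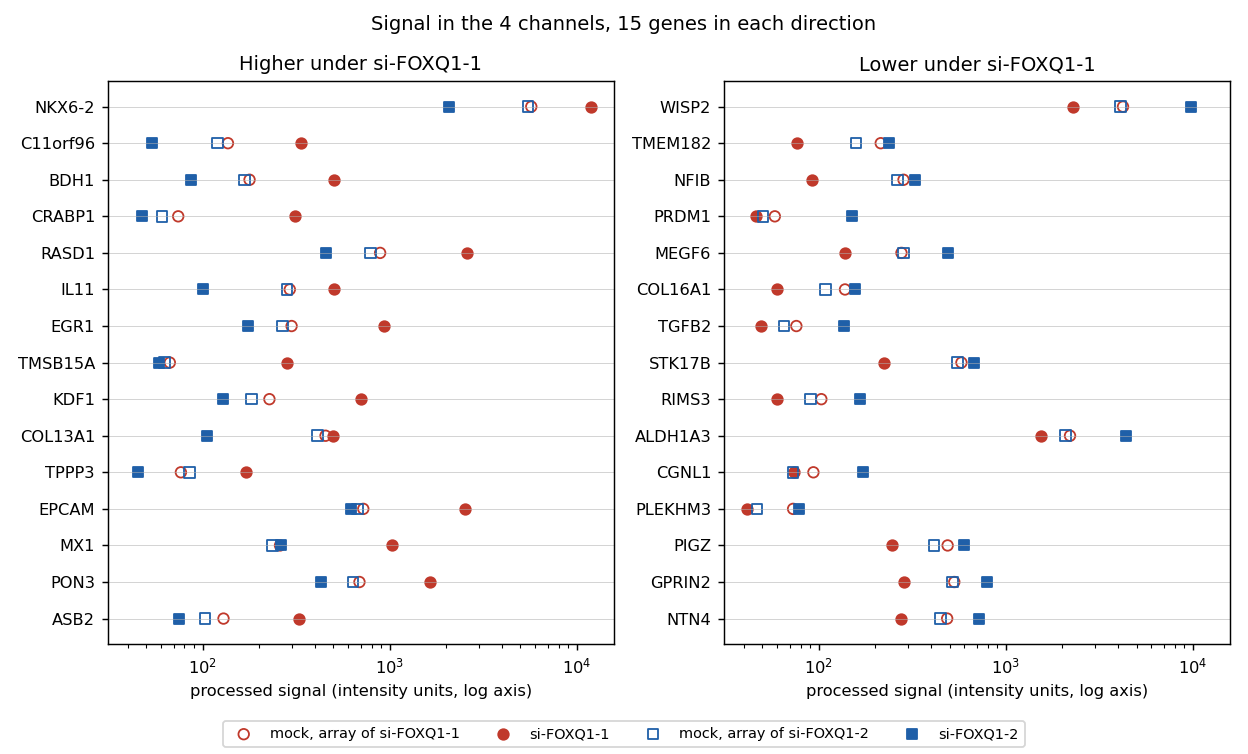
Processed signal (x axis, log axis, intensity units) of the 15 protein-coding genes with the highest and the 15 with the lowest difference between the siRNAs, each also at least 2-fold apart between the transfected channels. Open symbols are mock cells and filled symbols transfected cells, circles the array of si-FOXQ1-1 and squares that of si-FOXQ1-2. For most genes the open symbols lie close together while the filled symbols are apart, as for NKX6-2 with 11953 and 2068, and PLEKHM3 is the gene whose open symbols are widest apart, at 72.9 and 46.8.

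Genes lower under si-FOXQ1-1 included matrix proteins, secreted ligands and developmental transcription factors. WISP2, also called CCN5, a secreted matricellular protein linked to Wnt signalling, had a signal of 4229 in mock cells and 2276 under si-FOXQ1-1, and of 4109 in mock cells and 9757 under si-FOXQ1-2. It was below mock with the first siRNA (log2 ratio -0.89) and above mock with the second (1.25), and its difference of -2.14 ± 0.32 was the lowest of all 15869 genes (chromosome 20, 43356347 to 43356406, hg19). TGFB2, a ligand of the TGF-beta receptors, had signals of 75.9, 48.8, 65.1 and 136 in the same order. Its difference was -1.70 ± 0.39, and it was -0.89 after normexp and loess. NTN4, a laminin-related netrin of basement membranes, differed by -1.51 ± 0.31, with log2 ratios of -0.82 and 0.69. COL16A1, a fibril-associated collagen, differed by -1.74 ± 0.34 at its brightest probe and by 0.66 ± 0.37 at another, so its direction depended on the probe, and the brightest was at -1.10 after normexp and loess. MEGF6, a secreted protein with EGF-like repeats, differed by -1.79 ± 0.32.

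NFIB, a transcription factor of the nuclear factor I family, had a signal of 284 in mock cells and 92.3 under si-FOXQ1-1, and of 264 in mock cells and 328 under si-FOXQ1-2. NFIB was thus mainly below mock under si-FOXQ1-1, with log2 ratios of -1.62 and 0.31 and a difference of -1.93 ± 0.34. Its other probes gave -1.35 ± 0.36 and -0.14 ± 0.44, both at lower signal. PRDM1, the transcriptional repressor also known as BLIMP1, had a signal of 58.2 in mock cells and 46.4 under si-FOXQ1-1, and of 50.3 in mock cells and 150 under si-FOXQ1-2. In contrast to NFIB, PRDM1 was above mock under si-FOXQ1-2 and near mock under si-FOXQ1-1, with a difference of -1.90 ± 0.40. After normexp and loess NFIB was at -1.31 and PRDM1 at -1.04. ALDH1A3, a retinaldehyde dehydrogenase that makes retinoic acid, had a signal of 2202 in mock cells and 1549 under si-FOXQ1-1, and of 2081 in mock cells and 4391 under si-FOXQ1-2. Its log2 ratios were -0.51 and 1.08, with a difference of -1.59 ± 0.31.

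The other genes of this direction had varied roles. STK17B, a serine/threonine kinase of the death-associated family, was mainly below mock under si-FOXQ1-1 (log2 ratios -1.38 and 0.29) and differed by -1.67 ± 0.32. TMEM182, a membrane protein of muscle, differed by -2.07 ± 0.34, and by -1.72 in the direct comparison of transfected channels, with mock channels 0.33 apart. PIGZ, a mannosyltransferase of GPI anchor synthesis, differed by -1.52 ± 0.31, GPRIN2 by -1.52 ± 0.31, and RIMS3, a presynaptic scaffold protein, by -1.67 ± 0.35. CGNL1, a junctional protein related to cingulin, was mainly above mock under si-FOXQ1-2 (log2 ratio 1.24) and differed by -1.59 ± 0.36. The mock channels of PLEKHM3 were themselves 0.54 apart on the log2 scale, and its difference of -1.57 ± 0.41 fell to -1.02 when the transfected channels were compared directly. After normexp and loess TMEM182 was at -1.45, RIMS3 at -1.04, CGNL1 at -0.996 and PLEKHM3 at -0.81.

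Further probes of the differing genes gave a check within the arrays. For 35 of the 265 genes, 42 further probes passed the signal filter, of which 35 had the sign of the brightest probe and 13 had its sign and were past 2-fold. The 7 with the opposite sign belonged to COL16A1, EPB41L5, GADD45G, GCNT2, RASGRP2, RECK and ZNF365, and their signals lay between 40.3 and 89.3. The 280 probes with at least 5 spots gave a median standard deviation of 0.07 between spots for the difference, with a maximum of 0.29. The combined spot error of the scanner software was larger than this, at a median of 0.29.

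Gene lists showed how the difference was spread over pathways. The members of each list were described by their count and median. These lists were chosen with earlier results of the same data known, so their shares are a description and not a test. Of all 15869 genes, 7648 had a positive difference and 8221 a negative one. Over all genes 1.67% were past 2-fold and the median was -0.01, so lists of these sizes would each hold about 1 gene past 2-fold or none at that share. In the list of immediate early genes and feedback inhibitors of MAPK signalling, 4 of 18 measured genes (22.2%, against 1.12% of all genes) were at least 2-fold higher under si-FOXQ1-1 and none was lower, and the median difference was 0.43. Besides EGR1, these were the dual-specificity phosphatases DUSP5 and DUSP6, which dephosphorylate ERK, and SPRY4, a Sprouty inhibitor of receptor tyrosine kinase signalling. DUSP5 had a signal of 612 in mock cells and 1439 under si-FOXQ1-1, and of 569 in mock cells and 517 under si-FOXQ1-2, a difference of 1.37 ± 0.31. DUSP6 had a signal of 1024 in mock cells and 1170 under si-FOXQ1-1, and of 955 in mock cells and 487 under si-FOXQ1-2, a difference of 1.16 ± 0.30. DUSP5 was thus above mock under si-FOXQ1-1, and DUSP6 was below mock under si-FOXQ1-2. SPRY4 resembled DUSP6, with log2 ratios of 0.23 and -0.79 and a difference of 1.02 ± 0.30. The list was not uniform: 13 of its 18 genes had a positive difference and 5 a negative one, with JUNB, a partner of FOS in AP-1, the lowest at -0.53.

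The metallothioneins, small cysteine-rich proteins that bind zinc and copper, had positive differences for all 8 measured members, with a median of 0.47. MT1F alone passed 2-fold (12.5% of the list, against 1.67% of all genes). Its signal was 223 in mock cells and 882 under si-FOXQ1-1, and 219 in mock cells and 320 under si-FOXQ1-2, a difference of 1.44 ± 0.35. MT1F was above mock under both siRNAs and farther above it under the first. The other members lay between 0.26 for MT3 and 0.65 for MT1X. Cross-hybridisation between these similar transcripts was not tested. When the transfected channels were compared directly, MT3 was at -0.02.

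**Figure D4:**
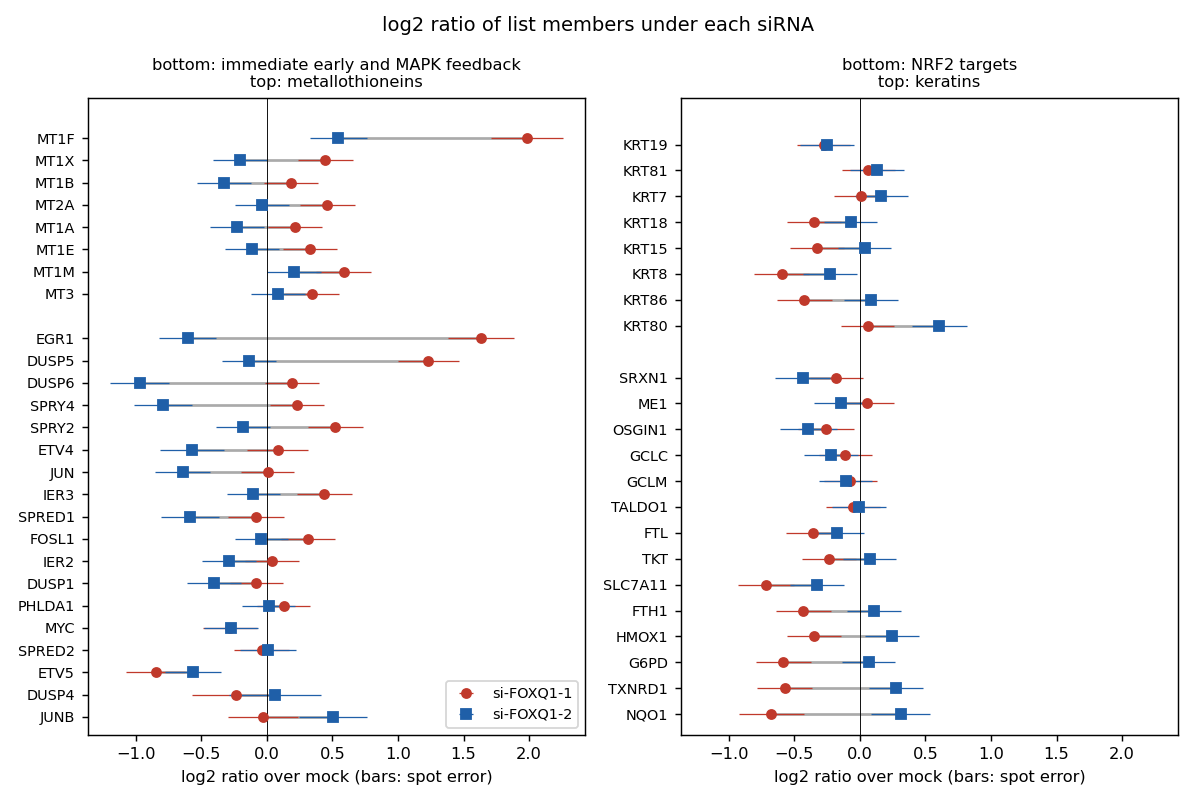
log2 ratio over mock (x axis) of every measured member of the immediate early and MAPK feedback list and the metallothioneins (left) and of the NRF2 targets and keratins (right). Red circles are si-FOXQ1-1, blue squares si-FOXQ1-2, and bars the spot error. MT1F (1.98 and 0.55) and EGR1 (1.63 and -0.61) are widest apart on the left, and NQO1 (-0.67 and 0.31) on the right.

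Collagens and matrix enzymes differed in both directions. Of 24 listed genes, 2 were higher and 2 lower (16.7%, against 1.67% of all genes), with a median of -0.01. COL16A1, described above, is not on this list. Besides COL13A1, the higher gene was COL1A1, the main fibrillar collagen chain, which had a signal of 1625 in mock cells and 1735 under si-FOXQ1-1, and of 1559 in mock cells and 688 under si-FOXQ1-2. COL1A1 was therefore near mock under the first siRNA and below mock under the second, a difference of 1.27 ± 0.31. It was the 1 fibroblast marker of 5 above background, with the rest in none of the channels. The lower genes were COL6A2, a chain of the microfibrillar collagen VI, at -1.29 ± 0.38, and LOXL4, a lysyl oxidase-like crosslinking enzyme, at -1.07 ± 0.33. In the direct comparison of transfected channels COL6A2 reached -0.995 and LOXL4 -0.86, both short of 2-fold, and a further probe of COL6A2 gave -0.33 ± 0.49. In the list for epithelial-mesenchymal transition, EPCAM and CLDN3 were higher and SPARC, a matricellular glycoprotein, was lower. These were 15.8% of 19 measured genes, against 1.67% of all genes, and the list median was -0.04. SPARC had a signal of 2934 in mock cells and 1658 under si-FOXQ1-1, and of 2527 in mock cells and 3108 under si-FOXQ1-2. Its difference was -1.12 ± 0.30, and -0.99 in the direct comparison.

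Other lists held a single gene past 2-fold, between 3.23% and 5.88% of their members against 1.67% of all genes, which is within 1 gene of that share. Of 31 interferon response genes, MX1 was higher, and the median was 0.07. MX1, an antiviral GTPase of the dynamin family, had a signal of 259 in mock cells and 1035 under si-FOXQ1-1, and of 237 in mock cells and 263 under si-FOXQ1-2. The log2 ratio of MX1 was thus 2.00 under si-FOXQ1-1 and 0.15 under si-FOXQ1-2, a difference of 1.85 ± 0.35. The lowest gene of the list was the chemokine CCL5 at -0.99 ± 0.31. Of 22 genes of glycolysis and hypoxia, SLC2A1, the glucose transporter GLUT1, was higher at 1.17 ± 0.30, and 18 of the 22 had a positive difference (median 0.24). Under si-FOXQ1-2 SLC2A1 was below mock (log2 ratio -0.69) and under si-FOXQ1-1 above it (0.49). Of 17 p53 targets, TP53INP1 was higher at 1.05 ± 0.35 and reached 0.84 in the direct comparison. Of 20 TGF-beta response genes, TGFB2 itself was past 2-fold, and the median was 0.06.

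Many lists held no gene past 2-fold, which at 1.67% of all genes is close to the background for lists of their size. The 50 cell cycle genes had a median of 0.17, from CCNE1 (cyclin E1) at -0.23 to the phosphatase CDC25A at 0.84. The 24 genes of cholesterol and fatty acid synthesis ran from SREBF1, the sterol regulatory factor, at -0.26 to the methylsterol monooxygenase MSMO1 at 0.67, with a median of 0.23. The 25 replication-dependent histone genes ran from HIST1H2BF at -0.28 to HIST1H1C at 0.83, with a median of 0.21, while HIST2H2AA4 (1.57) and HIST1H2AD (1.07), histone genes that are not on the list, were past 2-fold. At the negative end, the 14 NRF2 targets had a median of -0.25, from the quinone reductase NQO1 at -0.98 ± 0.31 to the sulfiredoxin SRXN1 at 0.26. The 14 NF-kB and inflammatory genes had a median of -0.29, from TNFAIP2 at -0.94 to LIF at 0.19, and the 8 keratins a median of -0.32, from KRT80 at -0.55 to KRT19 at -0.03. All 8 keratins and 12 of the 14 inflammatory genes were lower under si-FOXQ1-1, against 8221 of all 15869 genes, none of these list members by 2-fold.

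Several lists lay close to the median of all genes. The 17 forkhead factors had a median of -0.0007, from FOXC2 at -0.22 to FOXN2 at 0.61. The 13 genes of the RNA interference machinery had a median of 0.06, from TNRC6A at -0.33 to AGO2 at 0.53. The 20 ribosomal protein genes had a median of -0.05, from RPLP0 at -0.34 to RPL13 at 0.15. The Wnt list (27 genes, median 0.04, from FZD2 at -0.81 to LEF1 at 0.60), the integrins and laminins (16 genes, median -0.08, from LAMC1 at -0.84 to ITGA5 at 0.60), the EGF receptor family (9 genes, median 0.08, from ERBB2 at -0.25 to HBEGF at 0.78), the BCL2 family and death receptors (20 genes, median -0.07, from BMF at -0.53 to HRK at 0.81) and the ATF4 and unfolded protein stress genes (25 genes, median -0.04, from SLC7A5 at -0.76 to DNAJB9 at 0.89) also held none past 2-fold.

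**Figure D5:**
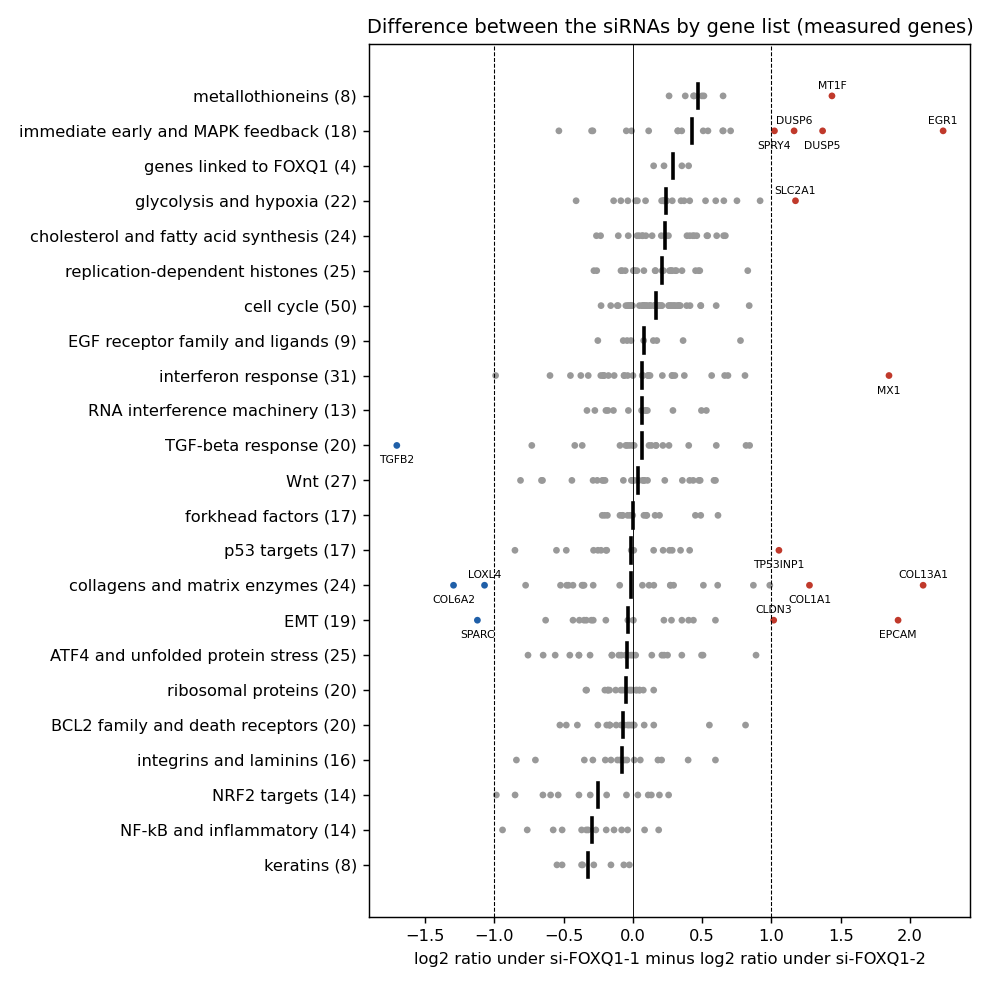
Difference between the siRNAs (x axis, log2 ratio under si-FOXQ1-1 minus that under si-FOXQ1-2) for each measured gene of each list, with the number of measured genes in brackets. Points past 2-fold (dashed lines) are red or blue and named, and black bars are list medians. Medians run from -0.32 for keratins to 0.47 for metallothioneins.

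Promoter sequences are shown for EGR1, MX1 and PRDM1, genes that parted between the siRNAs and carry a known or searched element there. PRDM1 is the gene with the lowest difference whose window held the forkhead core. The sequences are from RefSeq (GRCh38.p14), 250 bases before to 50 after the start of the gene. In EGR1 (chr5:138465229-138465528, plus strand) the capitals mark 2 CArG boxes, the site of serum response factor through which growth factor signals act on immediate early genes. In MX1 (chr21:41420308-41420607, plus strand) they mark GAAA, any 2 bases and GAAA, the core of an interferon-stimulated response element, searched on both strands. In PRDM1 (chr6:106086086-106086385, plus strand) they mark TGTTTA, the core bound by forkhead proteins, searched on both strands.
EGR1: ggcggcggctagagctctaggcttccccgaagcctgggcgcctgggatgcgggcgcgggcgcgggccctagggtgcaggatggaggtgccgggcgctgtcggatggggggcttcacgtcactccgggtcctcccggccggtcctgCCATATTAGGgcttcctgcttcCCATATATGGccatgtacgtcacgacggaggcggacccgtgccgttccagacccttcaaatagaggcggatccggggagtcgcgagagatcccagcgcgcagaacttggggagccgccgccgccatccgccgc
MX1: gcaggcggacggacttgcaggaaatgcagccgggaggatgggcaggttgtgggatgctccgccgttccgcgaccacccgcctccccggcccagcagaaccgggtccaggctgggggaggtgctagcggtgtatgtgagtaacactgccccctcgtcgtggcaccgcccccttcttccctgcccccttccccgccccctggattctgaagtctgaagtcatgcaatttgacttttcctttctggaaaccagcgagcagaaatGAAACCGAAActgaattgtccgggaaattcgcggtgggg
PRDM1: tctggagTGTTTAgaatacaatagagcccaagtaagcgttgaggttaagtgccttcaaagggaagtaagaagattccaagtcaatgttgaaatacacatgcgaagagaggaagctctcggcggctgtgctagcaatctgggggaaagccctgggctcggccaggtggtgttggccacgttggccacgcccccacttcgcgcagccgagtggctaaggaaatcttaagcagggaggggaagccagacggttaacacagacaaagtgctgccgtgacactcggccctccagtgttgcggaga
A CArG box was found in 1.29% of all 27305 promoters, the interferon element in 3.65% and TGTTTA in 12.4%. The forkhead core was present in 11 promoters of genes lower under si-FOXQ1-1 (16.7% of 66), in 8 promoters of genes higher (7.48%) and in 671 of 10194 promoters of all genes measured (6.58%). The other genes had no entry in the table of promoters and were left out of these shares. Besides PRDM1, the matches included NTN4 and PLEKHM3 among the lower genes and COL13A1 among the higher genes. For the interferon element the shares were 1.52% of lower, 0.935% of higher and 2.72% of all measured genes, and for the CArG box none, 1.87% and 1.04%. The shares were not tested, and a match in these windows does not show that a factor binds there.

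Some transcripts were measurable under one siRNA and not the other. In 453 genes outside the set, the mock channels of both arrays and the channel of si-FOXQ1-1 were well above background while that of si-FOXQ1-2 was not, and in 668 genes the reverse held. The set held 15869 of the 43317 genes with a probe. Over all spots, Cy5 was above background for 39.0% on the array of si-FOXQ1-1 and 39.4% on that of si-FOXQ1-2. The 453 and 668 were not tested against each other. A lower limit of the fold change could be given from normalised Cy5 signals against the dimmest signal called above background. It passed 2-fold for 4 genes higher under si-FOXQ1-1 and for 2 genes lower. CXCR4, the receptor of the chemokine CXCL12, was at least 2.10-fold higher, with signals of 109 under si-FOXQ1-1 and 19.0 under si-FOXQ1-2 against 30.4 and 38.9 in the mock channels. ARG2, a mitochondrial arginase, was at least 2.14-fold higher and TNS4, a tensin of focal adhesions, at least 2.03-fold higher, and the fourth was an unnamed probe. It passed 1.5-fold for 35 genes higher under si-FOXQ1-1 and for 23 genes lower. Among the higher were the immediate early genes FOS and FOSB, at least 1.61-fold and 1.66-fold, and IFI27 and OAS2, at least 1.84-fold and 1.55-fold. Among the lower was IL17RD, at least 1.66-fold. ART5, an ADP-ribosyltransferase, was at least 6.90-fold lower, with signals of 30.1 under si-FOXQ1-1 and 496 under si-FOXQ1-2 against 27.8 and 38.2 in the mock channels, and KIAA1407 was at least 2.07-fold lower. These limits set Cy5 against Cy5 and do not use the mock signal of the gene, so a difference between the arrays enters them. For DOCK11, at least 1.74-fold higher, the mock signals were 96.6 and 47.8. The genes named beside the 6 past 2-fold were chosen after their values were seen.

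The same probes were read on the other 6 arrays of the series. NKX6-2 was above background in no channel of the FaDu and PC3 arrays, so it was measured in PANC-1 alone. WISP2 was above background in both channels on all 6 arrays, with log2 ratios of 0.45 to 1.53, so si-FOXQ1-1 was the only one of the 8 transfected samples in which it lay below mock. Its mock signals were low on the PC3 arrays, at 22.5 to 64.2, against 219 and 368 on the FaDu arrays. MX1 ranged over the 6 arrays from -0.95 to 3.12 and RASD1 from -1.36 to 2.19. FOXQ1 ranged from -1.29 to 0.89, above its values of -2.16 and -2.12 in the PANC-1 arrays. Other pairs of arrays from one cell line, each with a pair of different microRNAs, differed at least 2-fold for more genes by the same rule: 11.3% for both strands of miR-99a in FaDu, 5.57% for both strands of miR-150 in PC3 and 8.49% for the 3p strands of miR-99a and miR-100 in PC3, against 1.67% for the FOXQ1 siRNAs. With 1 array for each RNA these shares were not tested against each other.

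The limit of 2-fold was crossed in small steps. Just inside it were SNAP91, 2.009-fold higher under si-FOXQ1-1, and PLK2, 2.0002-fold lower, and just outside it GLIPR2, 1.9994-fold higher, and SNORD114-29, 1.9981-fold higher.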

How the data were processed

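Total RNA of transfected cells (Cy5) and untransfected cells (Cy3) was hybridised to 1 array per condition, 8 arrays on 1 slide, and quantified by Feature Extraction (Agilent, 10.7.3.1). The deposited scanner files hold the authors' background-subtracted, dye-normalised intensity of each channel and the log10 ratio of Cy5 over Cy3, with probes placed on hg19. The deposited table of log10 values equals those ratios (largest difference 0; column medians 0 and 0), which were expressed on the log2 scale. Outlier-flagged and control spots were removed, spots of a probe were averaged, and the brightest probe stood for a gene. Direct channel comparisons used log2 signals centred on the median. With 1 array per siRNA no test was possible.

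Named were FOXQ1, the 15 highest and 15 lowest protein-coding genes past 2-fold also in the direct comparison, members of the lists past 2-fold, and the highest and lowest member of lists with none. The members, lists and limits were chosen with earlier results of these data known. RefSeq named 12941 of 15869 genes. Alternatives used limma 3.58.1 in R 4.3.3, and steps were tested on simulated data. Python 3.11.15 and pandas 2.3.3 were used.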

Additional observations from a re-analysis of the deposited data

Results flagged for a closer look

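NKX6-2 and C11orf96 were more than 2-fold above mock under si-FOXQ1-1 and more than 2-fold below mock under si-FOXQ1-2. They were picked out because the siRNAs moved them in opposite directions. The difference between the siRNAs was 2.48 for NKX6-2 and 2.47 for C11orf96 on the log2 scale, and 2.40 and 1.68 after normexp and loess. With 1 array per siRNA this difference was not tested. Both further probes of NKX6-2 were above mock under si-FOXQ1-1 and below mock under si-FOXQ1-2, the brighter with log2 ratios of 0.84 and -1.27. C11orf96 was read by 1 probe, with signals of 53.4 to 337.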

How the results depend on the processing

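No paired analysis was possible because each siRNA had 1 array. For the same reason no array could be left out, and the slide, which held all 8 arrays, could not be used as a block. The counts of 177 higher and 88 lower genes were 71 and 29 after normexp and loess, 76 and 27 when the Cy5 channels were compared after normexp, loess and Aquantile normalisation, and 83 and 38 with a signal of at least 100 in all channels. They were 527 and 460 with at least 1 channel above background on each array, and 2224 and 2408 without a background filter. At 1.5-fold they were 787 and 675, and at 4-fold 11 and 2. The mock channels differed 2-fold for 10 genes and, after loess and Aquantile, for 6. The signal limit removes genes, which lowers the counts by construction, and the parts of background correction and loess were not separated. Dim spots admitted by looser filters have little signal over background. The other alternatives left the counts within 1.5-fold. FOXQ1 stayed between -0.08 and -0.02 under every alternative. List medians shifted by at most 0.21, and those of 8 of the 23 lists, all near 0, changed sign or reached 0 under some alternative. Of 41 named genes, 21 moved by more than their spot error after normexp and loess and 20 with Aquantile, and 8 and 9 then fell short of 2-fold, against 2 and 4 in the direct Cy5 comparison. With the dimmest probe 4 moved and COL16A1 reversed to 0.66. The cause was not tested.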

Other observations

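The following genes were chosen after their values were seen. The imprinted neighbours IGF2 and H19 parted in opposite directions. IGF2, a growth factor, had a signal of 4720 in mock cells and 4695 under si-FOXQ1-1, and of 4237 in mock cells and 1703 under si-FOXQ1-2, a difference of 1.31 ± 0.31. H19, a long non-coding RNA, had a signal of 10132 in mock cells and 4202 under si-FOXQ1-1, and of 9468 in mock cells and 8057 under si-FOXQ1-2, a difference of -1.04 ± 0.31, and a further probe gave -0.98 ± 0.31. IGF2 was thus below mock under si-FOXQ1-2 and H19 mainly under si-FOXQ1-1. PPARG, the nuclear receptor of fat cell differentiation, and PLIN4, a coat protein of lipid droplets, were both below mock under si-FOXQ1-1 and near mock under si-FOXQ1-2, with differences of -1.17 ± 0.31 and -1.21 ± 0.31, and a further probe of PPARG gave -0.87 ± 0.30. The contractile genes CNN1 and MYL9 differed by 1.07 ± 0.30 and 1.08 ± 0.30, with log2 ratios of 0.46 and 0.11 under si-FOXQ1-1 and of -0.62 and -0.97 under si-FOXQ1-2. MYL9 was at 0.95 in the direct comparison, short of 2-fold.

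Of 203 small nucleolar RNAs measured, 6 (2.96%) were at least 2-fold higher under si-FOXQ1-1 and none was lower. Of all genes, 1.12% were higher. SNORD71, SNORD113-2, SNORD7 and SNORD66 had signals between 40.2 and 151, about the range of the dimmest genes, of which 3.48% differed at least 2-fold in either direction. Of the 6, SNORD71, SNORD113-2 and SNORD46 were also past 2-fold between the transfected channels directly, at 1.35, 1.19 and 1.01.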
